A study of Mus musculus with 8 samples.

Results

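Cultured mouse spermatogonia that had been kept for 2 days in nutrient restriction medium with retinoic acid (NRRA) were compared with cultures kept in complete medium (Veh), across all genes measured by RNA-seq. The comparison was taken from the condition labels and used 4 of the 8 libraries of the series, 2 NRRA and 2 Veh. The other 4 libraries, 2 with retinoic acid in complete medium (RA) and 2 in nutrient restriction medium alone (NR), served to estimate the spread between replicates and to give levels beside the comparison. All 8 libraries came from primary spermatogonial stem cell (SSC) cultures of C57BL/6XDBA/2 F1 hybrid mice, started from non-adherent testicular cells of 6-day-old pups and grown with bFGF (FGF2) and GDNF, and the replicates were described as independent cultures. Veh was complete SSC medium, RA was complete SSC medium with 100 nM retinoic acid, NR was 10% SSC medium in 90% Earle's balanced salt solution, and NRRA was the NR medium with 100 nM retinoic acid. By this recipe nutrient restriction also dilutes FGF2 and GDNF, so that growth factor supply and nutrient supply cannot be told apart. The germ cells grew on mouse embryonic fibroblasts that had been arrested by irradiation and came from outbred CF1 mice, so that fibroblast transcripts may be among those counted. In such bulk RNA, fewer cells of a type and less RNA per cell cannot be told apart.

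Undifferentiated spermatogonia contain the stem cells of the testis, and they are maintained by GDNF, which signals through GFRA1 and RET, and by FGF2. Retinoic acid is made from vitamin A by retinol and retinaldehyde dehydrogenases, binds the retinoic acid receptors on response elements in DNA, and is broken down by the CYP26 enzymes. In the testis it drives the transition from undifferentiated to KIT-positive differentiating spermatogonia and, through STRA8, the entry into meiosis. The question behind the combined treatment was whether lack of nutrients acts together with retinoic acid on germ cells at the entry into meiosis. The same libraries were read here across all genes, meiotic or not.

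The 8 libraries held 19261333 to 30023585 counts, and levels are given in counts-per-million (CPM), of which 1 CPM stood for 19.2 to 31.2 reads. The spread between the 2 Veh libraries was 3.93 times, and between the 2 NRRA libraries 1.73 times, what counting error alone gives (chi-square per gene), so that neither pair was the same library deposited again. The log2 CPM values of the 2 Veh libraries correlated at 0.992, those of the 2 NRRA libraries at 0.995, and those of a Veh and an NRRA library at 0.955 to 0.957 across genes. Defining markers of germ cells were present in all libraries. In Veh and NRRA *Ddx4* was at 131 to 191 CPM, *Dazl* at 299 to 467 CPM, *Dnd1* at 44.0 to 59.2 CPM and *Mael* at 97.0 to 112 CPM. Fibroblast markers were present as well and are given beside the matrix genes. Of the Sertoli and Leydig cell markers, *Amh*, *Fshr*, *Cyp17a1*, *Hsd3b1* and *Insl3* had 0 to 9 counts in each library, whereas *Wt1* was at 4.08 to 9.05 CPM, *Star* at 5.13 to 13.7 CPM and *Sox9* at 7.0 to 37.5 CPM over the 8 libraries. The macrophage marker *Adgre1* was present at 46.4 to 76.3 CPM over the 8 libraries.

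Of 55421 genes in the table, 20477 passed the filter on low counts and were tested with edgeR's quasi-likelihood test. Below, ± after a log2 fold change is the standard error of the fit, and a gene is said to rise or fall for a fold of at least 2 at an adjusted p (Benjamini-Hochberg) below 0.05, unless the adjusted p alone is named. By this rule 2030 genes (9.91% of those tested) were higher and 1233 genes (6.02%) were lower in NRRA than in Veh. By the adjusted p alone 6171 genes (30.1%) were higher and 5880 (28.7%) lower. Changes of at least 4-fold were seen in 541 genes upwards and 418 downwards, and changes of at least 16-fold in 81 upwards and 70 downwards. In 3260 of the 3263 genes called, the 2 NRRA values did not overlap the 2 Veh values. The same held for 15836 of all 20477 genes tested, called or not. The median log2 fold change over all tested genes was 0.03, with quartiles at -0.32 and 0.48.

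The genes that rose made up 1.99% and 2.03% of all counts in the Veh libraries and 6.33% and 6.29% in the NRRA libraries. The genes that fell made up 7.71% and 7.68% in Veh and 2.68% and 2.65% in NRRA. Calls were more frequent among weakly expressed genes. Of the 3883 genes with a mean under 1 CPM, 17.3% rose and 8.32% fell, whereas of the 2533 genes over 100 CPM 2.72% rose and 4.46% fell. Among genes of 10 to 100 CPM the shares were 5.05% and 4.27%.

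**Figure D1:**
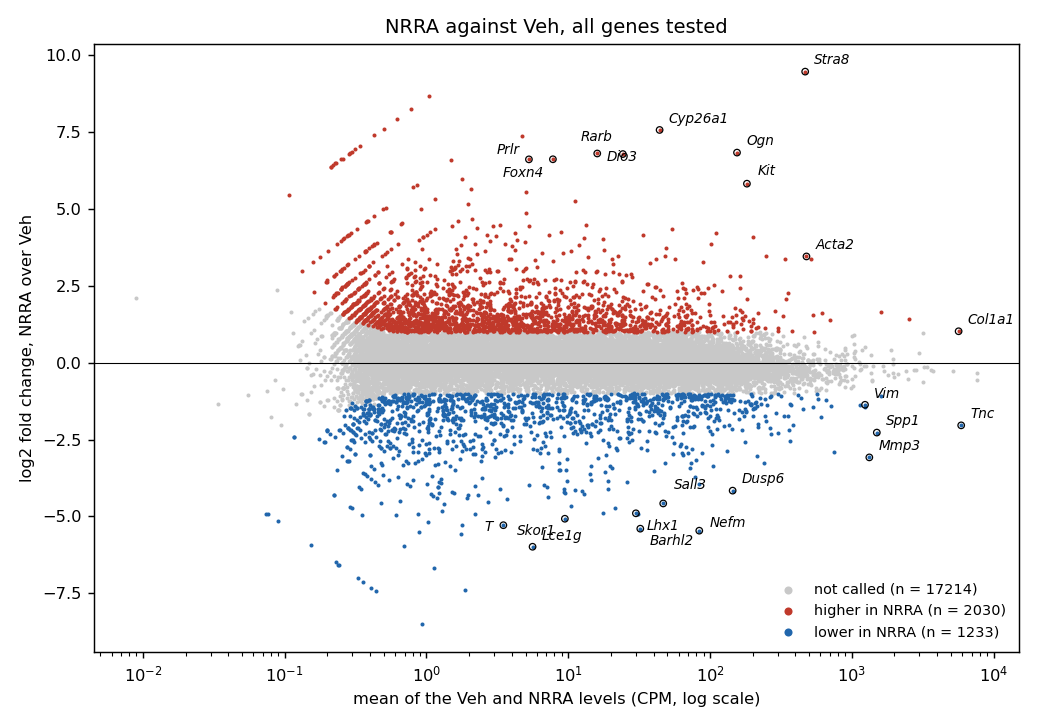
Each point is a gene, with the mean of its Veh and NRRA levels in CPM on a log axis and its log2 fold change (NRRA over Veh) on the vertical axis; red genes were called higher (2030), blue genes lower (1233) and grey genes neither, and circles mark labelled genes. *Stra8* stands at the top at 9.47, *Col1a1* and *Tnc* are the labelled genes farthest to the right, on opposite sides of 0, and the points fan out towards low levels.

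The 12 genes with the largest increases were *Stra8*, *Cyp26a1*, *Sprr3*, *Ogn*, *Dio3*, *Rarb*, *Foxn4*, *Prlr*, *Flg*, *Kit*, *Grpr* and *Ccl20*. Genes with a mean below 50 counts, or with overlapping Veh and NRRA values, were left out of this ranking. *Stra8*, the retinoic acid-induced gene that germ cells need to enter meiosis, stood at 1.14 and 1.51 CPM in the Veh libraries and at 917 and 957 in the NRRA libraries (log2 fold change 9.47 ± 0.08; adjusted p = 1.25e-31 by edgeR's quasi-likelihood test). *Kit*, the receptor of stem cell factor that marks differentiating spermatogonia, stood at 6.34 and 6.31 CPM in the Veh libraries and 359 and 357 in the NRRA libraries, a fold of 56.6. *Foxn4*, a forkhead transcription factor known from the retina and spinal cord, was near the limit of detection in Veh, with 0.149 and 0.156 CPM, and stood at 15.2 and 15.7 in the NRRA libraries (log2 fold change 6.62 ± 0.24). The Veh levels of all 12 genes but *Kit*, *Ogn* and *Stra8* were under 1 CPM.

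*Ogn* encodes osteoglycin (mimecan), a small leucine-rich proteoglycan of connective tissue. It stood at 2.63 and 2.76 CPM in the Veh libraries and 320.4 and 295 in the NRRA libraries, a fold of 114, with mean levels of 12.1 CPM in RA and 74 CPM in NR. *Dio3*, an imprinted gene whose product inactivates thyroid hormone, stood at 0.347 and 0.208 CPM in Veh and 31.2 and 32.4 CPM in NRRA (log2 fold change 6.8 ± 0.18). *Prlr*, the prolactin receptor, stood at 0.0991 and 0.104 CPM in Veh and 10.9 and 9.98 CPM in NRRA (log2 fold change 6.61 ± 0.29). The NRRA levels of *Ogn*, *Dio3* and *Prlr* were above those of both single treatments. *Ccl20*, a chemokine that binds CCR6, stood at 0.347 and 0.0521 CPM in Veh and 9.33 and 10.3 CPM in NRRA (log2 fold change 5.56 ± 0.29). For *Sprr3* and *Flg*, genes of the cornified envelope of skin, and for *Grpr*, the X-linked receptor of gastrin-releasing peptide, the Veh libraries together held 2, 2 and 3 counts. The ratio of NRRA to Veh was 185, with a 95% counting interval of 50.9 to 1529.6 for *Sprr3*, 69.3, with a 95% counting interval of 18.9 to 576 for *Flg* and 53, with a 95% counting interval of 17.9 to 259 for *Grpr*, and these intervals cover counting error only.

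By the same rule, the 12 genes with the largest decreases were *Lce1g*, *Nefm*, *Barhl2*, *T*, *Skor1*, *Mmp10*, *Lhx1*, *Tcl1*, *Nxph4*, *Sox7*, *Sall3* and *Sprr2h*. Of these, *Barhl2*, *T*, *Skor1*, *Lhx1*, *Sox7* and *Sall3* encode transcriptional regulators of embryonic development. *Barhl2*, a homeobox gene of the nervous system, stood at 64.9 and 61 CPM in the Veh libraries and 1.82 and 1.19 in the NRRA libraries (log2 fold change -5.4 ± 0.12; adjusted p = 3.28e-23 by edgeR's quasi-likelihood test). *Sall3*, a zinc finger factor, stood at 92.3 and 87.2 CPM in Veh and 4.22 and 3.34 CPM in NRRA (log2 fold change -4.58 ± 0.09). *T* (Brachyury), the T-box factor of early mesoderm that undifferentiated spermatogonia also express, stood at 5.99 and 7.61 CPM in Veh and 0.25 and 0.0963 CPM in NRRA (log2 fold change -5.28 ± 0.32). *Nefm*, the medium neurofilament subunit, stood at 163 and 166 CPM in Veh and 3.79 and 3.66 CPM in NRRA (log2 fold change -5.46 ± 0.07). It shares 19.2% of its exon bases with *Nefl* on the opposite strand. The paper describes stranded libraries, but the strand setting of the counting is not given in the sources used here. *Tcl1*, a cofactor of AKT that is known from stem cells, stood at 35 and 32.7 CPM in Veh and 1.21 and 1.06 CPM in NRRA (log2 fold change -4.89 ± 0.13). The mean levels in RA were 3.93 CPM for *Barhl2*, 0.635 CPM for *Skor1*, 4.64 CPM for *Lhx1* and 2.86 CPM for *Tcl1*, against 41, 10.6, 31.4 and 28.8 CPM in NR. *Mmp10* and *Sox7* showed the other order, with 71.9 and 5.86 CPM in RA and 2.28 and 1.45 CPM in NR.

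Ranked by level per kilobase of exon, the scale on which genes can be compared with each other, other genes came first. The largest gains were those of *Col1a1*, the main fibrillar collagen chain of connective tissue, with 570.1 CPM per kb in Veh and 1159 in NRRA, and of *Stra8*, with 0.735 and 519.9 CPM per kb. *Acta2* (smooth muscle α-actin), *Lox* (lysyl oxidase), *Col3a1*, *Prss23* and *Saa3* (a serum amyloid) were also among the 10 largest gains. *Prss23os*, *Gm20412* and *Gm27786* were in the same ranking, but *Prss23os* shares 54.3% of its exon bases with *Prss23*, and *Gm20412* and *Gm27786* lie wholly on exons of *Tgm2* and *H19*, all on the opposite strand, so that their counts cannot be told apart from those genes without strand. The largest losses were those of *Spp1* (osteopontin), from 1511 to 313 CPM per kb, *Mmp3* (stromelysin), from 1321 to 156, and *Tnc* (tenascin C), from 1224 to 298. *Crabp1*, *Timp1*, *Ass1*, *S100a6*, *Pdpn*, *Vim* and *Gsto1* completed the 10 largest losses.

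Genes of retinoid metabolism and binding moved in both directions, with 10 of 19 higher, 3 lower and a median log2 fold change of 1.28. The background for such counts is 9.91% of genes higher and 6.02% lower. All 3 CYP26 hydroxylases rose. *Cyp26a1* stood at 0.495 and 0.417 CPM in the Veh libraries and 89 and 86.5 in the NRRA libraries (log2 fold change 7.57 ± 0.12), and *Cyp26c1* at 0.248 and 0.625 CPM in Veh and 8.0 and 8.09 CPM in NRRA (log2 fold change 4.2 ± 0.24). *Dhrs3*, which reduces retinaldehyde back to retinol, stood at 12.9 and 13.3 CPM in Veh and 187 and 194 CPM in NRRA (log2 fold change 3.86 ± 0.07). *Stra6*, the cell surface receptor for retinol-binding protein, stood at 1.09 and 1.77 CPM in Veh and 14.5 and 14.1 CPM in NRRA, and its level in RA was higher still, with a mean of 37.9 CPM. The members that fell included *Aldh1a3*, a retinaldehyde dehydrogenase that makes retinoic acid, with 7.73 and 6.15 CPM in Veh and 0.929 and 0.931 CPM in NRRA, and *Dhrs9*, a retinol dehydrogenase (log2 fold change -1.45 ± 0.13). *Crabp1*, a cytoplasmic retinoic acid binding protein, stood at 961 and 923 CPM in Veh and 269 and 284 CPM in NRRA (log2 fold change -1.77 ± 0.05). Other members with the same roles rose, *Aldh1a1*, a retinaldehyde dehydrogenase, by 1.28 ± 0.34 and *Crabp2*, a retinoic acid binding protein, by 2.57 ± 0.08 on the log2 scale; both were named after their values were seen.

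Among 21 retinoid receptors and known targets, 9 rose and 2 fell, with a median of 0.89. *Rarb*, the receptor gene that is itself a target of retinoic acid receptors, stood at 0.446 and 0.417 CPM in the Veh libraries and 47.5 and 48.8 in the NRRA libraries (log2 fold change 6.78 ± 0.15). It shares 38.4% of its exon bases with *Top2b* on the opposite strand. *Tgm2*, tissue transglutaminase, stood at 22 and 22.6 CPM in Veh and 383 and 377 CPM in NRRA (log2 fold change 4.09 ± 0.07; 21.8% of its exon bases overlap *Gm20412*), with means of 67.2 CPM in RA and 36.2 CPM in NR. *Cdx1*, a caudal-type homeobox gene, stood at 0.198 and 0 CPM in Veh and 2.25 and 2.12 CPM in NRRA. *Rxrg*, a retinoid X receptor, moved the other way, from 5.8 and 5.11 to 0.357 and 0.899 CPM (log2 fold change -3.08 ± 0.26).

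The promoters of *Rarb* and *Cyp26a1* are shown because both genes were among the 12 largest increases and both hold the same arrangement of the retinoic acid response element. The sequences are the 250 bases before the RefSeq start site on GRCm38.p6, written 5′ to 3′ on the strand of the gene, for *Rarb* at chr14:16575477-16575726 (minus strand) and for *Cyp26a1* at chr19:37697558-37697807 (plus strand). Capitals mark a direct repeat of GTTCA or GGTCA with 6 bases between both half-sites.
Rarb: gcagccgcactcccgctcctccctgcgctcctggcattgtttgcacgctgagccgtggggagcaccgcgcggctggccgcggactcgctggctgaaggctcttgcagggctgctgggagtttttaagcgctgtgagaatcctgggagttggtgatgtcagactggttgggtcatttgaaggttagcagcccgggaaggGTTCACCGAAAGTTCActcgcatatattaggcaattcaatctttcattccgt
Cyp26a1: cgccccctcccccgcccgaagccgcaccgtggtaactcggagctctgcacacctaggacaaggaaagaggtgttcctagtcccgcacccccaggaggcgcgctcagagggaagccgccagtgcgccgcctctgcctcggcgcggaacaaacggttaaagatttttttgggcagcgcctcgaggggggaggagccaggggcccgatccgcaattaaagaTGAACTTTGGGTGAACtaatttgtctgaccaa

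In *Rarb* the repeat ran from position -52 to -37, counted from the start site, on the gene's strand, and in *Cyp26a1* from -32 to -17 on the opposite strand. Such a repeat on either strand was found in 19 of the 13286 promoters of tested genes, counted from 250 bases before to 50 after the start site (0.143%). Among genes that rose it was in 6 of 1271 promoters (0.472%), and among genes that fell in 1 of 790 (0.127%). The other 4 genes with the repeat that rose were *Bmp6*, *Tnfsf13b*, *Dmd* and *Gm5941*, named here for the repeat, and the gene that fell was *Spg21*. The promoters of *Stra8*, *Ogn* and *Kit*, also among the 12 largest increases, held no such repeat in the 250 bases before their start sites. A match of letters is a description and not a site that was shown to be bound, and genes without these letters in this window can have response elements elsewhere.

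Of 40 genes of undifferentiated spermatogonia 27 fell, 0 rose past 2-fold, and the median log2 fold change was -2.23. *Nanos2*, an RNA-binding protein that maintains the stem cell state, stood at 3.37 and 3.54 CPM in the Veh libraries and 0.0715 and 0.0642 in the NRRA libraries (log2 fold change -5.57 ± 0.40; adjusted p = 4.31e-12 by edgeR's quasi-likelihood test), and 49% of its exon bases overlap *Gm45058* on the opposite strand. *Zbtb16* (PLZF), a repressor needed for self-renewal, stood at 171 and 156 CPM in Veh and 35.7 and 35.2 CPM in NRRA (log2 fold change -2.21 ± 0.06). *Lhx1*, a GDNF-induced homeobox gene, stood at 58.5 and 57.7 CPM in Veh and 1.89 and 1.99 CPM in NRRA (log2 fold change -4.9 ± 0.11). The libraries of both conditions were apart in each of these genes, as they were in 15836 of the 20477 genes tested. For *Lhx1*, which is also among the largest decreases, this was a condition of that ranking. *Pdx1* held 17 and 15 counts in Veh and 0 in both NRRA libraries, at least 16-fold lower against 3 counts over the group. *Sdc4*, the most abundant member per kb, stood at 520.0 and 478 CPM in Veh and 104 and 103 CPM in NRRA (log2 fold change -2.27 ± 0.05). *Id4*, a marker of the most primitive cells, did not pass the test, with 14.7 and 13.9 CPM in Veh and 14.6 and 15.8 CPM in NRRA, 4.01 CPM in RA and 20.8 CPM in NR.

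Signalling by GDNF and FGF was followed through its receptors and its feedback inhibitors. Of 26 such genes 17 fell and 2 rose, with a median of -1.67. *Ret*, the signalling receptor for GDNF, stood at 245 and 221 CPM in the Veh libraries and 31.8 and 31.8 in the NRRA libraries (log2 fold change -2.87 ± 0.06), and *Gfra1*, its partner, at 101 and 101 CPM in Veh and 27.8 and 26.6 CPM in NRRA (log2 fold change -1.9 ± 0.06). *Dusp6*, the phosphatase of ERK that is induced by ERK itself, stood at 269.9 and 277 CPM in Veh and 16 and 14.6 CPM in NRRA (log2 fold change -4.16 ± 0.06). *Spry4*, an inhibitor of the same pathway, stood at 132 and 132 CPM in Veh and 13 and 11.6 CPM in NRRA (log2 fold change -3.43 ± 0.06). Receptors, inhibitors and target genes of the pathway were among those that fell. *Etv5*, a GDNF and FGF target needed for stem cell maintenance, stood at 188 and 171 CPM in Veh and 28.5 and 27.3 CPM in NRRA, below its mean of 102 CPM in RA and 111 CPM in NR. The members that rose, *Fgfr3* (1.55 ± 0.11) and *Fgfr4* (1.9 ± 0.34), are FGF receptors with under 20 CPM in NRRA. *Ccnd1* (cyclin D1), the most abundant member per kb, stood at 789 and 771 CPM in Veh and 284 and 289 CPM in NRRA (log2 fold change -1.45 ± 0.04), with 23.4% of its exon bases shared with another gene on the opposite strand.

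Immediate early genes, which respond to growth factors within minutes, showed 11 of 24 members lower and 0 higher, with a median of -0.72. *Egr3* stood at 25.5 and 23.3 CPM in the Veh libraries and 1.32 and 1.22 in the NRRA libraries (log2 fold change -4.26 ± 0.13), and *Egr2* at 38.2 and 32.6 CPM in Veh and 2.32 and 2.6 CPM in NRRA (log2 fold change -3.84 ± 0.11). *Fosl1* (FRA1) showed a log2 fold change of -2.24 ± 0.07, with 57.2% of its exon bases shared with *Ccdc85b* on the opposite strand. *Ier3*, which is on this list and on the GDNF and FGF list, stood at 119 and 112 CPM in Veh and 14.5 and 14.2 CPM in NRRA (log2 fold change -3.01 ± 0.06).

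**Figure D2:**
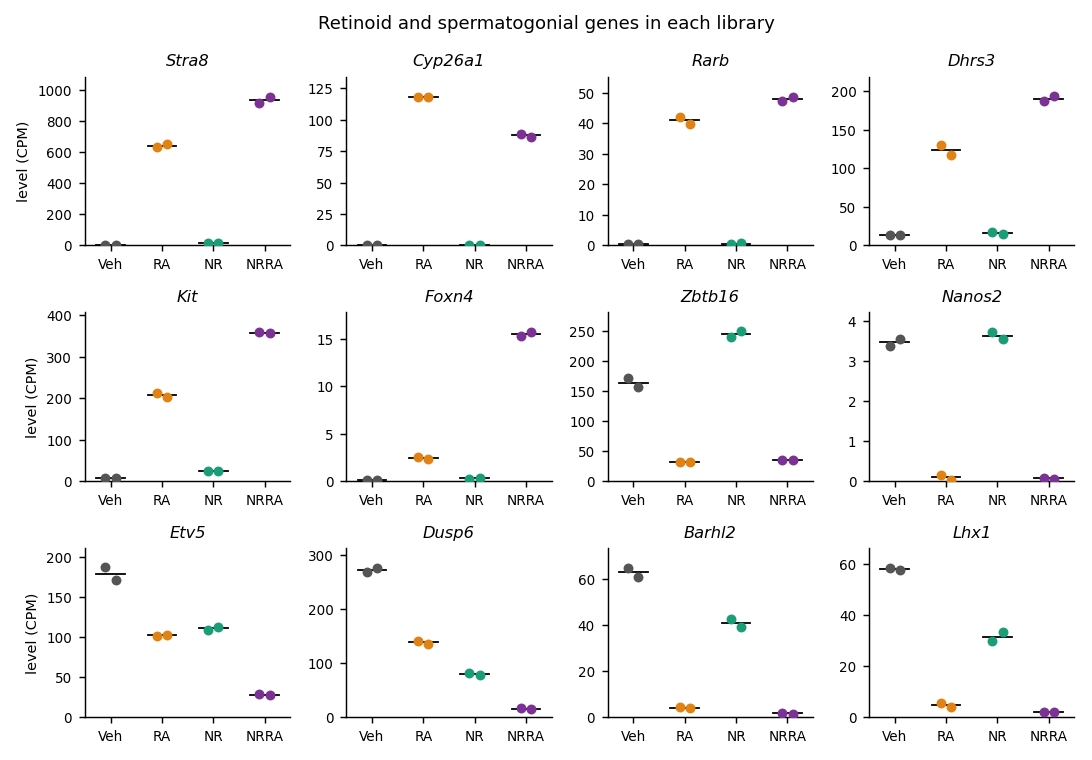
Level in CPM (vertical axes, from 0) in each of the 8 libraries of 12 retinoid and spermatogonial genes; points are libraries, 2 per condition, and bars are the mean of both. *Stra8*, *Cyp26a1*, *Rarb*, *Dhrs3* and *Kit* are high in both conditions with retinoic acid, *Foxn4* stands at 15.2 and 15.7 only in NRRA and below 3 elsewhere, and *Etv5* and *Dusp6* are lower in NRRA than in RA or NR.

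The list of differentiating spermatogonia was mixed, with 3 of 18 genes higher, 3 lower and a median of 0.43. Besides *Kit*, *Sox3* rose from 23.2 and 19.6 to 45.5 and 43.4 CPM, and *Prdm9*, the methyltransferase that sets recombination sites, rose from 2.18 and 3.13 to 7.97 and 6.81 CPM (log2 fold change 1.48 ± 0.17). *Upp1*, uridine phosphorylase, fell from 37.2 and 37.5 to 3.86 and 3.11 CPM (log2 fold change -3.43 ± 0.10). *Dmrtb1* fell from 4.80 and 3.07 to 1.25 and 1.77 CPM. *Crabp1*, counted with the retinoid genes as well, also fell and was the most abundant member per kb. By the adjusted p alone 12 members were higher and 6 lower. The summed level of this list was 3185.1 and 3143.2 CPM in Veh and 2441.7 and 2475.5 CPM in NRRA. *Sohlh1*, a germ cell helix-loop-helix factor, passed the test below 2-fold, with 25.9 and 23 CPM in Veh and 42.5 and 46 CPM in NRRA, and *Sohlh2* stood at 139 and 133 CPM in Veh and 149 and 155 CPM in NRRA. Of 24 general germ cell genes 2 rose, 0 fell past 2-fold and the median was 0.17, with 12 higher and 6 lower by the adjusted p alone. The 2 that rose were *Tex15* (log2 fold change 1.2 ± 0.07), a germ cell gene of transposon silencing and recombination, and *Sycp3* (log2 fold change 1.86 ± 0.09), a protein of the meiotic chromosome axis that shares 52.2% of its exon bases with *Chpt1* on the opposite strand. The summed level of the germ cell list was 2003 and 2059 CPM in Veh and 2545 and 2567 CPM in NRRA. By the adjusted p alone, the germ cell markers *Ddx4* (log2 fold change 0.41 ± 0.06) and *Dazl* (0.58 ± 0.05) were higher, and *Dnd1* (-0.28 ± 0.07) and *Mael* (-0.15 ± 0.05) lower. Of 34 genes of the meiotic axis, cohesin and recombination 13 rose, 0 fell past 2-fold and the median was 0.81. This list also holds the regulators *Stra8* and *Gm4969* (MEIOSIN), both among those that rose, and *Stra8* is counted among the retinoid targets as well. *Rec8*, the meiotic cohesin, stood at 8.27 and 6.31 CPM in Veh and 76.6 and 76.1 CPM in NRRA (log2 fold change 3.38 ± 0.10).

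Homeobox genes of the Hox clusters, which set position along the body axis, moved in both directions. Of 34 tested genes 6 rose and 4 fell, and the genes that rose were all in the Hoxa cluster. *Hoxa5* stood at 8.37 and 8.65 CPM in the Veh libraries and 21.7 and 20.4 in the NRRA libraries (log2 fold change 1.31 ± 0.09), and *Hoxa3* at 3.86 and 3.44 CPM in Veh and 11.4 and 9.89 CPM in NRRA (log2 fold change 1.54 ± 0.14), although 27.1% of the exon bases of *Hoxa3* overlap *Hoxaas2* on the opposite strand. The genes that fell lie at the end of their clusters that is used in the most posterior tissue. *Hoxc13* stood at 27.5 and 26.1 CPM in Veh and 5.97 and 5.2 CPM in NRRA (log2 fold change -2.27 ± 0.10), *Hoxc12* fell by 4.36 and *Hoxc11* by 4.24 on the log2 scale. *Hoxa13*, the last of the 4, was at 0.842 and 0.573 CPM in Veh and 0.0715 and 0.161 CPM in NRRA. *Hoxb9*, the most abundant Hox gene per kb, stood at 90.6 and 92.7 CPM in Veh and 50.2 and 49.5 CPM in NRRA and did not reach 2-fold. The difference between clusters was not tested.

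Of 37 other developmental transcription factors 7 rose and 10 fell, with a median of 0.26. Beside the leading genes named above, *Foxa2*, the forkhead factor of endoderm and floor plate, stood at 21.3 and 20.8 CPM in Veh and 1.5 and 0.899 CPM in NRRA (log2 fold change -4.15 ± 0.15). *Gbx2*, a homeobox gene of the midbrain border, rose from 0.792 and 1.25 to 4.04 and 3.92 CPM, but shares 43.5% of its exon bases with a gene on the opposite strand. *Tbx1*, a T-box factor of the pharynx, rose from 1.09 and 1.25 to 3.86 and 4.33 CPM. *En1*, the most abundant member per kb, stood at 61.5 and 57 CPM in Veh and 98.7 and 102 CPM in NRRA, under 2-fold. Among 21 neurofilament and synaptic genes 7 rose and 4 fell. The group held *Gap43*, a growth cone protein, at 44 and 45.4 CPM in Veh and 9.11 and 8.99 CPM in NRRA (log2 fold change -2.3 ± 0.08) and *Map2*, a neuronal microtubule protein, at 5.35 and 5.32 CPM in Veh and 18.1 and 16.5 CPM in NRRA (log2 fold change 1.7 ± 0.12).

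Genes of keratins and of the cornified envelope of skin had the widest spread of all lists in the plot of gene lists. Of 17 tested, among 31 listed, 10 fell and 5 rose, with log2 fold changes from -5.99 to 7.39. *Ivl* (involucrin), the most abundant member per kb, stood at 23.1 and 24.5 CPM in the Veh libraries and 4.79 and 4.94 in the NRRA libraries (log2 fold change -2.29 ± 0.10), with 47.7 CPM in RA and 2.4 CPM in NR. *Lce1g* stood at 11.7 and 10.4 CPM in Veh and 0.286 and 0.0642 CPM in NRRA, and *Sprr2h* at 5.2 and 5.21 CPM in Veh and 0.25 and 0.193 CPM in NRRA. *Sprr3* and *Sprr2b* moved the other way, the former from 0.0495 and 0.0521 to 8.68 and 10.02 CPM and the latter from 0.0495 and 0 to 2.97 and 2.92 CPM, both with at most 1 count in each Veh library. For *Sprr2b* the ratio of NRRA to Veh was 116, with a 95% counting interval of 20.5 to 4602 (counting error only). The Sprr and Lce genes lie in families of near-identical copies on chromosome 3, so that reads can be split between copies and the values of single members are uncertain. Junction genes fell more often than they rose, 7 against 2 of 24, among them *Gja1* (connexin 43) with 494 and 534 CPM in Veh and 154 and 152 CPM in NRRA (log2 fold change -1.75 ± 0.04) and *Cdh3* (P-cadherin) with 79.2 and 73.7 CPM in Veh and 26.5 and 28.2 CPM in NRRA.

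**Figure D3:**
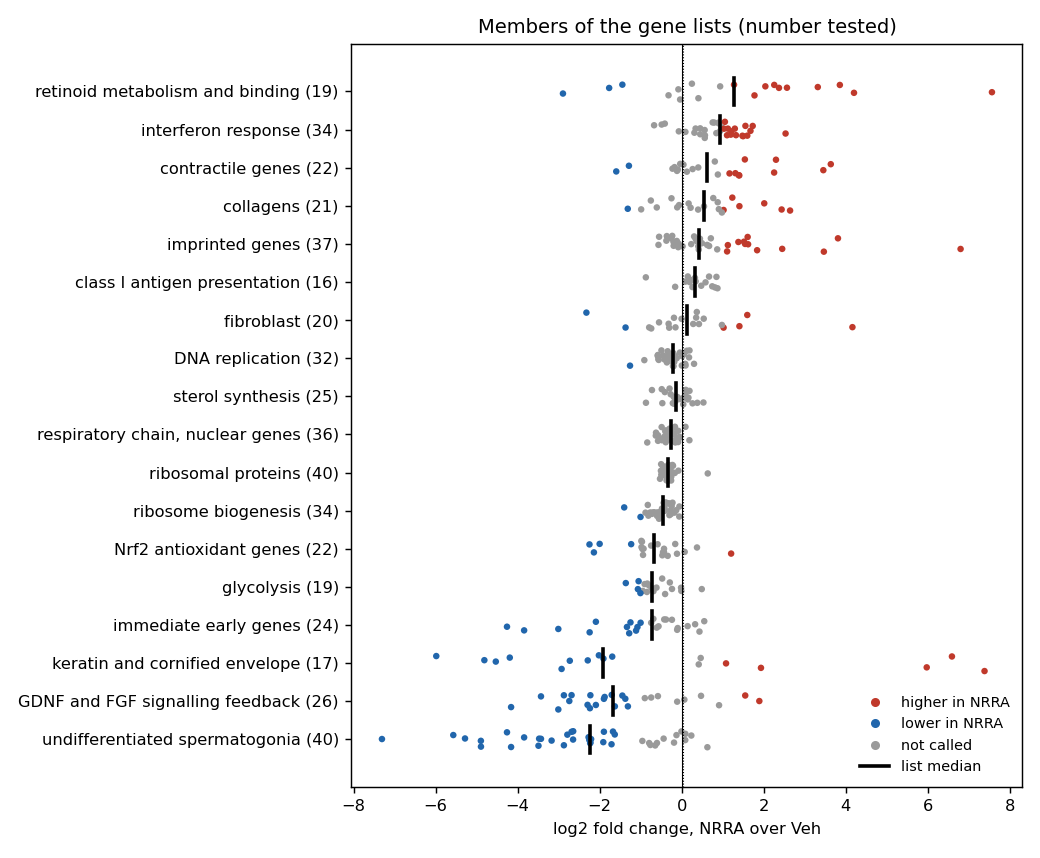
Log2 fold change (NRRA over Veh, horizontal axis) of each tested member of 18 gene lists; red points were called higher, blue points lower and grey points neither, black bars are list medians and the dotted line is the median of all genes at 0.03. Medians run from -2.23 for undifferentiated spermatogonia to 1.28 for retinoid metabolism, and ribosomal proteins lie close together near -0.32.

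Connective tissue genes moved in both directions. Of 21 collagen genes 6 rose and 1 fell, with a median of 0.55. *Col1a1* stood at 3761 and 3723 CPM in the Veh libraries and 7792 and 7416 in the NRRA libraries (log2 fold change 1.02 ± 0.04), and *Col3a1* at 1389.7 and 1402 CPM in Veh and 3741 and 3672 CPM in NRRA (log2 fold change 1.41 ± 0.04). *Col14a1*, which binds to fibrils, and *Col11a1*, a minor fibrillar chain, rose by more, with log2 fold changes of 2.64 ± 0.10 and 2.44 ± 0.06. *Col15a1*, a collagen of basement membranes, was the member that fell (log2 fold change -1.31 ± 0.11). The NR means of *Col1a1* and *Col3a1* were 7869 and 4057 CPM, and their RA means 3340.0 and 1093 CPM.

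Of 29 small leucine-rich proteoglycans and other matrix genes 11 rose and 3 fell, with a median of 0.42. Next to *Ogn*, *Aspn* (asporin), which lies close to it on chromosome 13, stood at 1.58 and 1.3 CPM in the Veh libraries and 23.6 and 25.1 in the NRRA libraries (log2 fold change 4.07 ± 0.14), with a mean of 117 CPM in NR. *Prelp*, a proteoglycan of cartilage and basement membranes, stood at 29.9 and 25 CPM in Veh and 98.1 and 95.4 CPM in NRRA and 243 CPM in NR. *Lox*, the enzyme that crosslinks collagen and elastin, stood at 720.5 and 837 CPM in Veh and 2492 and 2424 CPM in NRRA (log2 fold change 1.66 ± 0.05). The members that fell were *Mgp*, *Spp1* and *Tnc*. *Tnc*, an adhesion-modulating glycoprotein of remodelling tissue, stood at 9334 and 9691 CPM in Veh and 2376 and 2261 CPM in NRRA (log2 fold change -2.04 ± 0.04). *Spp1* stood at 2292 and 2688 CPM in Veh and 516 and 515 CPM in NRRA (log2 fold change -2.27 ± 0.05), with 5259.8 CPM in RA, and it shares 18.8% of its exon bases with *Gm42793* on the same strand. *Mgp*, an inhibitor of calcification, stood at 39.2 and 38.2 CPM in Veh and 5.86 and 4.88 CPM in NRRA (log2 fold change -2.85 ± 0.09).

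Matrix proteases and their inhibitors were divided, with 4 of 23 higher and 5 lower. The stromelysin genes *Mmp3* and *Mmp10* fell. *Mmp3* stood at 2293 and 2466 CPM in the Veh libraries and 289 and 274 in the NRRA libraries (log2 fold change -3.08 ± 0.05), and *Mmp10* at 58.1 and 63 CPM in Veh and 2.07 and 1.89 CPM in NRRA (log2 fold change -4.93 ± 0.10). *Plau* (urokinase) stood at 127 and 123 CPM in Veh and 29.8 and 30.7 CPM in NRRA (log2 fold change -2.05 ± 0.06), and the inhibitor *Timp1* fell with them (-1.5 ± 0.04). The aggrecanase genes *Adamts5* and *Adamts1* rose, *Adamts5* standing at 15.2 and 17.8 CPM in Veh and 162 and 160.5 CPM in NRRA (log2 fold change 3.29 ± 0.06) and *Adamts1* at 26.9 and 29 CPM in Veh and 93.9 and 91.8 CPM in NRRA (log2 fold change 1.73 ± 0.06). *Timp3*, an inhibitor bound to the matrix, rose as well, from 83.6 and 85.5 to 205 and 203 CPM, and its mean in NR was 562 CPM; 21.3% of its exon bases overlap *Syn3*, the gene that it lies within, on the opposite strand.

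Contractile genes of smooth muscle and myofibroblasts showed 9 of 22 members higher and 2 lower, with a median of 0.61. *Acta2* (smooth muscle α-actin) stood at 80.6 and 79.5 CPM in the Veh libraries and 879 and 878 in the NRRA libraries, a fold of 11, against 509 CPM in NR and 55 CPM in RA. *Myl9*, a myosin light chain, stood at 30.3 and 29.2 CPM in Veh and 145 and 139 CPM in NRRA (log2 fold change 2.26 ± 0.06), and *Lmod1*, which nucleates actin filaments of smooth muscle, at 1.34 and 1.77 CPM in Veh and 20.3 and 18.5 CPM in NRRA (log2 fold change 3.64 ± 0.15). *Ankrd1* and *Tagln2* fell, by 1.59 and 1.29 on the log2 scale. *Prss23*, a secreted serine protease outside the lists, was among the largest gains per kb, with 87.8 and 96.6 CPM in Veh and 949 and 943 CPM in NRRA (log2 fold change 3.36 ± 0.05), and 22.9% of its exon bases overlap *Prss23os*.

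Markers of fibroblasts, which were in the dishes as feeder cells, did not move in 1 direction. Of 20 markers 4 rose (*Fap*, *Postn*, *Col3a1* and *Col1a1*), 2 fell (*Vim* and *S100a4*) and the median was 0.14, or -0.004 in a fit with GC content and exon length as offsets. The transcription factor *Twist1* stood at 32.9 and 28.4 CPM in Veh and 28.2 and 25.8 CPM in NRRA, and *Prrx1*, a homeobox factor of limb mesenchyme, at 217 and 244 CPM in Veh and 209 and 207 CPM in NRRA. The growth factor receptor *Pdgfra* stood at 109 and 108 CPM in Veh and 138 and 139 CPM in NRRA, and *Pdgfrb* at 269.6 and 264 CPM in Veh and 391 and 384 CPM in NRRA. All 4 differed by less than 2-fold. By the adjusted p alone *Pdgfra* (log2 fold change 0.35 ± 0.04) and *Pdgfrb* (0.54 ± 0.04) were higher, and *Twist1* and *Prrx1* lower. Over the 20 markers, 10 were higher and 9 lower by the adjusted p alone. *Vim* (vimentin), by contrast, stood at 1803 and 1773 CPM in Veh and 704 and 681 CPM in NRRA (log2 fold change -1.37 ± 0.04), and *Fap* (fibroblast activation protein) at 2.92 and 4.22 CPM in Veh and 62.9 and 64.9 CPM in NRRA (log2 fold change 4.17 ± 0.10). The summed level of all 20 markers was 24087 and 24293 CPM in Veh and 30302 and 29513 CPM in NRRA. This sum holds *Col1a1* and *Col3a1*, which are counted with the collagens as well. Their means were 3742 and 1396 CPM in Veh and 7604 and 3707 CPM in NRRA, so that the sum is not a measure of fibroblast content. The part of the feeder cells in the matrix, protease and contractile results was not tested. Of the 12 tested markers of other testis cells 2 rose and 3 fell. *Sox9* was lower, at 32.6 and 31.2 CPM in Veh and 7.29 and 7.0 CPM in NRRA. The 2 that rose were *Clu*, from 8.72 and 8.86 to 29.9 and 31.6 CPM, and *Cldn11*, from 0.248 and 0.104 to 0.75 and 0.353 CPM. The summed level of this list was 208 and 201 CPM in Veh and 91.5 and 91.0 CPM in NRRA. Of 13 tested markers of blood and endothelium 1 rose and 2 fell, with summed levels of 310.3 and 304 CPM in Veh and 313 and 325 CPM in NRRA. *Lyz2*, the most abundant member per kb, had means of 146 CPM in Veh and 151 CPM in NRRA. The 2 that fell were the endothelial markers *Pecam1*, from 6.98 and 6.67 to 2.68 and 2.38 CPM, and *Cdh5*, from 4.85 and 4.33 to 1.97 and 1.99 CPM.

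**Figure D4:**
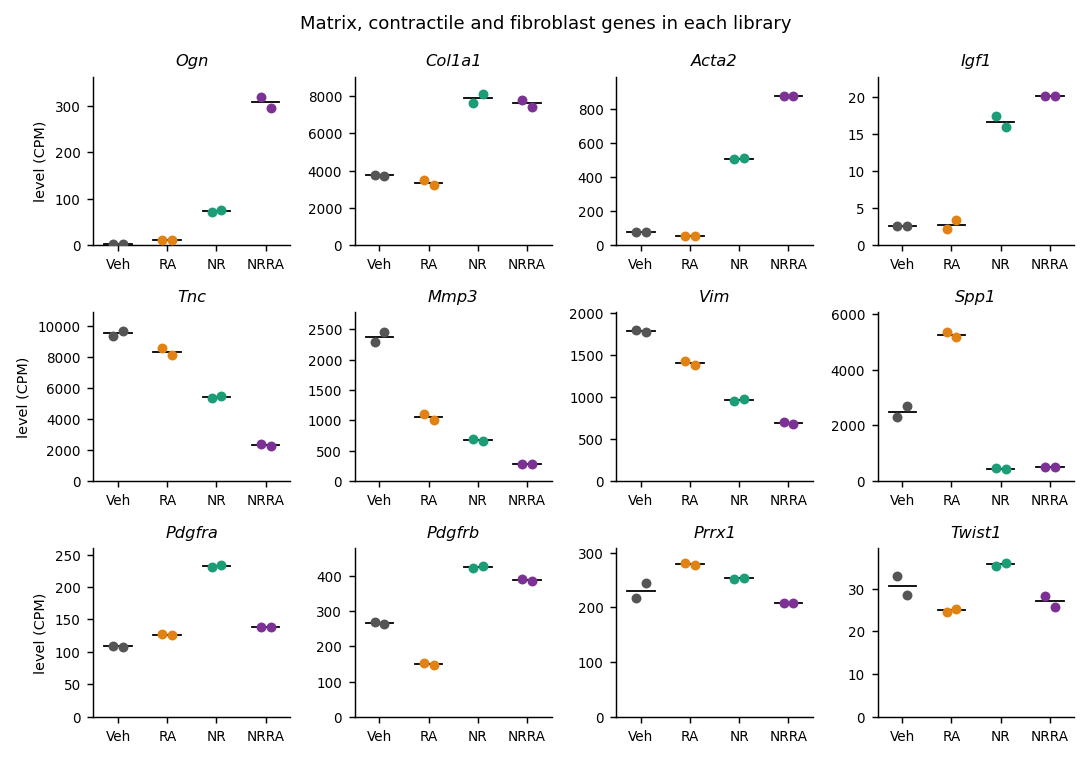
Level in CPM (vertical axes, from 0) in each of the 8 libraries of 12 matrix, contractile and fibroblast genes; points are libraries, 2 per condition, and bars are the mean of both. *Ogn*, *Acta2*, *Col1a1* and *Igf1* are higher and *Tnc*, *Mmp3*, *Vim* and *Spp1* lower in NRRA than in Veh, while *Pdgfra*, *Pdgfrb*, *Prrx1* and *Twist1* differ by less than 2-fold.

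Cytokines and growth factors went both ways, with 7 of 37 chemokines and cytokines higher and 10 lower. *Tgfb2*, a ligand of the TGF-β family, stood at 10.2 and 9.8 CPM in the Veh libraries and 101 and 105 in the NRRA libraries (log2 fold change 3.37 ± 0.07), with 11.2 CPM in RA and 35.1 CPM in NR. *Igf1*, the growth factor that acts through its own receptor tyrosine kinase, stood at 2.63 and 2.61 CPM in Veh and 20.1 and 20.2 CPM in NRRA (log2 fold change 2.94 ± 0.14). Its binding proteins differed, with *Igfbp3* at 39.9 and 41.3 CPM in Veh and 283 and 289 CPM in NRRA (log2 fold change 2.82 ± 0.05) and *Igfbp4* at 234 and 215 CPM in Veh and 71.7 and 72.2 CPM in NRRA (log2 fold change -1.64 ± 0.05). The cytokines that fell most were *Il11*, a member of the IL-6 family, at 26 and 27.9 CPM in Veh and 2.07 and 1.8 CPM in NRRA, and the alarmin *Il33*, at 124 and 143 CPM in Veh and 13.7 and 14.3 CPM in NRRA. *Tslp* and *Csf2* fell by 2.87 and 2.37 on the log2 scale. *Ccl2*, the most abundant chemokine per kb, stood at 686 and 753 CPM in Veh and 399 and 409 CPM in NRRA and did not reach 2-fold.

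Among BMP pathway targets and Id genes 8 of 20 fell and 1 rose. Secreted BMP antagonists were among those that fell, *Grem1* at 352 and 409 CPM in the Veh libraries and 44.9 and 47.7 in the NRRA libraries (log2 fold change -3.04 ± 0.06) and *Chrd* with a log2 fold change of -2.17 ± 0.11. The ligand *Bmp4* rose, from 6.93 and 7.04 to 20.01 and 21 CPM (log2 fold change 1.55 ± 0.10). Wnt pathway targets were divided, 5 of 23 higher and 5 lower. *Sp5* fell from 38.6 and 33.7 to 3.89 and 3.15 CPM (log2 fold change -3.37 ± 0.11) and *Axin2* rose from 12.5 and 9.17 to 31.1 and 27.1 CPM (log2 fold change 1.42 ± 0.10). Both are known as direct targets of β-catenin. The Wnt antagonists *Dkk2* and *Sfrp1* also moved apart, *Dkk2* to 16.3 and 15.9 CPM from 115 and 131 and *Sfrp1* to 52.9 and 55.4 CPM from 14.6 and 16.5. Of 18 Notch pathway genes 3 rose and 2 fell, with the receptor *Notch1* at 183 and 171 CPM in Veh and 78.8 and 75 CPM in NRRA (log2 fold change -1.2 ± 0.05) and the ligand *Jag2* at 30.3 and 27.3 CPM in Veh and 71.9 and 72.6 CPM in NRRA (log2 fold change 1.33 ± 0.06).

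Of 34 interferon response genes 15 rose and 0 fell past 2-fold, 29 were higher and 3 lower by the adjusted p alone, and the median was 0.92. *Cxcl10*, a chemokine induced by interferon, stood at 34.5 and 27.9 CPM in the Veh libraries and 169.9 and 192 in the NRRA libraries (log2 fold change 2.54 ± 0.09), with 149 CPM in NR and 30.9 CPM in RA. *Oas3*, a sensor of double-stranded RNA, stood at 9.86 and 8.96 CPM in Veh and 28.8 and 33.8 CPM in NRRA (log2 fold change 1.73 ± 0.10), and the antiviral enzyme *Rsad2* (viperin) at 32.4 and 29.3 CPM in Veh and 90.9 and 106 CPM in NRRA (log2 fold change 1.68 ± 0.07). *Cxcl9*, an interferon-induced chemokine of the cytokine list, stood at 3.12 and 2.5 CPM in Veh and 21.5 and 24 CPM in NRRA (log2 fold change 3.01 ± 0.13). *Ifitm3*, the most abundant member per kb, stood at 387 and 380.0 CPM in Veh and 410.4 and 407 CPM in NRRA (log2 fold change 0.09 ± 0.04). Its adjusted p by edgeR's quasi-likelihood test was 0.0619, and over the alternative settings it ranged from 1.5e-05 to 0.249, past the threshold upwards in 5 of them. Genes of class I antigen presentation moved by less, 12 of 16 higher and 2 lower by the adjusted p, 0 past 2-fold and a median of 0.33. The median of the interferon list against Veh was 0.88 in NR and -0.14 in RA, comparisons that share the 2 Veh libraries. Of the leukocyte markers, *Adgre1* stood at 56.7 and 58.4 CPM in Veh and 67.3 and 72.9 CPM in NRRA, *Cd68* at 24.5 and 21.1 CPM in Veh and 19.9 and 18.2 CPM in NRRA, and *Ptprc* at 2.87 and 4.53 CPM in Veh and 7.58 and 7.03 CPM in NRRA. None of them was called, but by the adjusted p alone *Ptprc* (log2 fold change 0.98 ± 0.16) and *Adgre1* (log2 fold change 0.29 ± 0.06) were higher and *Cd68* (log2 fold change -0.26 ± 0.08) lower. *Csf1r*, also a leukocyte marker, stood at 24.7 and 23.7 CPM in Veh and 23.6 and 22.7 CPM in NRRA and did not pass (log2 fold change -0.07 ± 0.07). The part of leukocytes in the interferon values was not tested.

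The promoter of *Cxcl10* is shown because the gene led this list and holds the paired GAAA letters that interferon regulatory factors are known to bind. It is the 250 bases before the RefSeq start site at chr5:92348890-92349139 (GRCm38.p6, minus strand), with GAAA repeated after 2 bases in capitals.
Cxcl10: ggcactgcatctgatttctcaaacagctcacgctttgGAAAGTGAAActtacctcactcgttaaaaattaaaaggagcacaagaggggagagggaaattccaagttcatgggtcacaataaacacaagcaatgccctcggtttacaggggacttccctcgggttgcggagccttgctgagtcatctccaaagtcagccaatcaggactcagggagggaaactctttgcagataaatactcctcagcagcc

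The repeat ran from position -213 to -204. GAAA repeated after 2 bases, on either strand, was found in 399 of 13286 promoters (3%), in 66 of the 1271 of genes that rose (5.19%) and in 20 of the 790 of genes that fell (2.53%). CACGTG, the E-box of the MYC and TFE families, was in 9.7% of all promoters, 6.29% of those of genes that rose and 8.73% of those of genes that fell. CNCCTCAG, the letters assigned to STRA8, were in 9.24%, 9.68% and 8.1%. TCACNCCAC (sterol) was in 1.17%, 1.73% and 1.14%, and TGATGNAA (ATF4) in 2.35%, 3.54% and 2.91%. These shares are descriptions and were not tested.

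Most glycolytic genes were lower. By the adjusted p alone, which 28.7% of all genes passed downwards, 16 of 19 genes of glycolysis and glucose uptake were lower and 1 higher, 4 fell past 2-fold and the median was -0.73. *Pkm*, pyruvate kinase, stood at 1693 and 1589 CPM in the Veh libraries and 642 and 635 in the NRRA libraries (log2 fold change -1.36 ± 0.04; 15.3% of its exon bases overlap *Gm49759* on the same strand), with 1134 CPM in RA and 1026 CPM in NR. *Ldha*, lactate dehydrogenase, stood at 372 and 352 CPM in Veh and 173 and 173 CPM in NRRA (log2 fold change -1.07 ± 0.05), and *Eno1* at 579.8 and 549.7 CPM in Veh and 275 and 270.1 CPM in NRRA (log2 fold change -1.05 ± 0.04). Nuclear genes of the respiratory chain moved less in the same direction, 27 of 36 lower and 1 higher by the adjusted p, 0 past 2-fold and a median of -0.26. The median over all genes above 100 CPM was -0.16. Of the 13 genes of the mitochondrial genome 9 were lower by the adjusted p, with a median of -0.25. *mt-Co1* stood at 8512 and 8614 CPM in Veh and 6695 and 6955 CPM in NRRA.

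Translation genes were lower by small steps, beside a median log2 fold change of -0.16 over all genes above 100 CPM. Of 40 ribosomal protein and elongation genes 38 were lower by the adjusted p and 0 past 2-fold, with a median of -0.32. *Eef1a1*, the elongation factor, stood at 5622 and 5658 CPM in Veh and 4602 and 4714 CPM in NRRA. Of 34 genes of ribosome biogenesis 32 were lower by the adjusted p, with a median of -0.45, and *Rrp9* and *Nhp2*, of the small nucleolar particles, fell past 2-fold (-1.4 ± 0.06 and -1.003 ± 0.06). Of 19 cytosolic aminoacyl tRNA synthetases 15 were lower and 1 higher by the adjusted p, with a median of -0.40. *Mycn*, a MYC family factor of stem and progenitor cells, stood at 59.4 and 54.4 CPM in Veh and 8.86 and 7.67 CPM in NRRA (log2 fold change -2.79 ± 0.08), while *Mycl* rose from 3.81 and 3.91 to 9.36 and 9.73 CPM. When library totals replaced the scaling factors, the median of all genes rose by 0.11, and the medians of these lists stayed below 0.

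Of 29 genes of the amino acid response 1 rose and 4 fell past 2-fold, with a median of -0.09, or 0.03 under library totals. *Slc7a11*, the cystine importer that is also a target of NRF2, stood at 40.5 and 46.7 CPM in the Veh libraries and 9.43 and 8.93 in the NRRA libraries (log2 fold change -2.25 ± 0.09), and *Slc7a5*, the importer of large neutral amino acids, at 393 and 340.2 CPM in Veh and 143 and 139.8 CPM in NRRA (log2 fold change -1.37 ± 0.05). *Phgdh*, the first enzyme of serine synthesis, stood at 181 and 164 CPM in Veh and 49.95 and 48.9 CPM in NRRA (log2 fold change -1.8 ± 0.05). *Nupr1*, a stress-induced chromatin protein, was the member that rose, from 22.1 and 21.1 to 44.7 and 42.7 CPM. *Ass1*, which makes the precursor of arginine and is outside the lists, was among the largest losses per kb, with 1316 and 1311 CPM in Veh and 176 and 172 CPM in NRRA (log2 fold change -2.92 ± 0.04). Of 22 antioxidant genes of the NRF2 pathway 4 fell and 1 rose, with a median of -0.66, and *Hmox1* (heme oxygenase) stood at 357 and 337 CPM in Veh and 87.6 and 86 CPM in NRRA. *Nqo1*, a quinone reductase, stood at 35.5 and 31.8 CPM in Veh and 7.32 and 7.93 CPM in NRRA.

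Of 38 lysosome and autophagy genes 25 were lower and 5 higher by the adjusted p, 4 fell past 2-fold and the median was -0.20. *Tfeb*, the master regulator of lysosomal genes, stood at 45.3 and 39.5 CPM in Veh and 13 and 12.1 CPM in NRRA (log2 fold change -1.75 ± 0.09), and *Rragd*, a GTPase that signals amino acids to mTORC1, at 97.8 and 93.9 CPM in Veh and 15.8 and 15.8 CPM in NRRA (log2 fold change -2.6 ± 0.06), with 148 CPM in NR and 15 CPM in RA. *Ctsl*, a lysosomal protease, stood at 2130.0 and 2247 CPM in Veh and 1014 and 1056 CPM in NRRA, with 26.8% of its exon bases shared with *Gm47123* on the opposite strand. None of 25 sterol synthesis genes passed 2-fold, 12 were lower and 3 higher by the adjusted p and the median was -0.13. Of 11 genes of sterol efflux 3 rose, with a median of 0.65 and the cholesterol exporter *Abca1* at 86.2 and 103 CPM in Veh and 245 and 251 CPM in NRRA (log2 fold change 1.4 ± 0.06). *Cpt1a*, which brings fatty acids into mitochondria, fell from 299 and 296 to 124 and 119.9 CPM (log2 fold change -1.29 ± 0.04), and *Pdk4*, which restrains the oxidation of glucose, rose from 4.95 and 6.04 to 16.9 and 18.7 CPM (log2 fold change 1.7 ± 0.11).

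Few cell cycle genes changed past 2-fold, but few genes of like level did so in general. Of all genes at 10 to 100 CPM 5.05% rose and 4.27% fell, and of those over 100 CPM 2.72% and 4.46%. Of 32 replication genes 1 fell past 2-fold, *Chaf1b* (log2 fold change -1.26 ± 0.07), 22 were lower by the adjusted p and the median was -0.21. Of 32 mitosis genes 0 passed 2-fold, with 13 higher and 11 lower by the adjusted p and a median of -0.03, or 0.08 under library totals. *Ccnd1*, given above, was the member of 18 D cyclins and CDK inhibitors that fell past 2-fold, and *Cdkn1a* (p21) stood at 665 and 629 CPM in Veh and 489 and 497 CPM in NRRA. Of 22 p53 targets 2 fell and 0 rose past 2-fold, and of 18 Bcl2 family genes 2 fell and 1 rose. *Bcl2l10*, a survival factor of oocytes, held 8 and 10 counts in Veh and 0 in both NRRA libraries, at least 9.01-fold lower against 3 counts over the group. Of 19 clock genes 4 fell and 0 rose past 2-fold, 10 were higher and 5 lower by the adjusted p alone, and the median was 0.15. Among those that fell were *Bhlhe41* (log2 fold change -2.22 ± 0.07), with 19% of its exon bases shared with *Gm43909*, and *Nr1d1*, at 88.4 and 84.6 CPM in Veh and 40.7 and 38 CPM in NRRA.

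Of 37 imprinted genes 12 rose and 0 fell past 2-fold, with a median of 0.42. *Peg3*, a maternally silenced zinc finger gene, stood at 39.6 and 43.4 CPM in the Veh libraries and 458 and 460.4 in the NRRA libraries (log2 fold change 3.47 ± 0.05), with 81.5 CPM in RA and 142 CPM in NR. Its neighbour *Zim1* stood at 0.991 and 2.19 CPM in Veh and 21.4 and 23 CPM in NRRA (log2 fold change 3.81 ± 0.17). *H19*, a long noncoding RNA and the most abundant member per kb, stood at 113 and 102 CPM in Veh and 319.9 and 339 CPM in NRRA (log2 fold change 1.61 ± 0.05; *Gm27786* lies within it on the opposite strand). The 12 genes were *Dio3*, *Zim1*, *Peg3*, *Magel2*, *Plagl1*, *Zdbf2*, *H19*, *Rtl1*, *Ascl2*, *Nap1l5*, *Grb10* and *Usp29*, which include genes read from the maternal and from the paternal copy. Of 14 regulators of DNA methylation 1 rose and 1 fell, and of 32 Polycomb subunits 0 rose and 1 fell. *Tet3*, an oxidase of methylcytosine, rose from 65.2 and 60.2 to 129 and 128 CPM (log2 fold change 1.04 ± 0.05), and *Dnmt3l*, the cofactor of germline methylation, fell from 4.21 and 3.28 to 1.5 and 1.16 CPM (log2 fold change -1.5 ± 0.22).

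Calls were also counted by chromosome. Of 769 tested X-linked genes 16.5% rose and 3.25% fell, with a median log2 fold change of 0.26, whereas the autosomes ranged from 6.13% to 12.6% for genes that rose and from 4.82% to 7.41% for genes that fell. Only the Y, with 3 of 14 genes higher, had a larger share that rose, and 0 of 25 tested mitochondrial genes were called. Among protein-coding genes, 108 of 608 X-linked genes (17.8%) and 1396 of 14930 autosomal genes (9.35%) rose. Within ranges of expression, of genes under 1 CPM 30.3% on the X and 21.8% on the autosomes rose, of genes at 1 to 10 CPM 28.9% on the X and 18.3% on the autosomes rose, and of genes at 10 to 100 CPM 9.89% and 4.98%. Over 100 CPM the order was the other way, with 1.82% of 55 X-linked genes and 2.67% of autosomal genes higher. In all, X-linked genes held 2.62% and 2.70% of the counts in Veh and 2.80% and 2.80% in NRRA. X-linked members of the lists included the Rhox homeobox cluster of the testis, of which 3 of 7 tested genes rose and 0 fell, with *Rhox10* at 2.48 and 3.28 CPM in Veh and 5.86 and 6.39 CPM in NRRA (log2 fold change 1.09 ± 0.18), and *Sox3* and *Grpr*, given above. These shares are counts over genes of the same 4 libraries and were not tested.

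**Figure D5:**
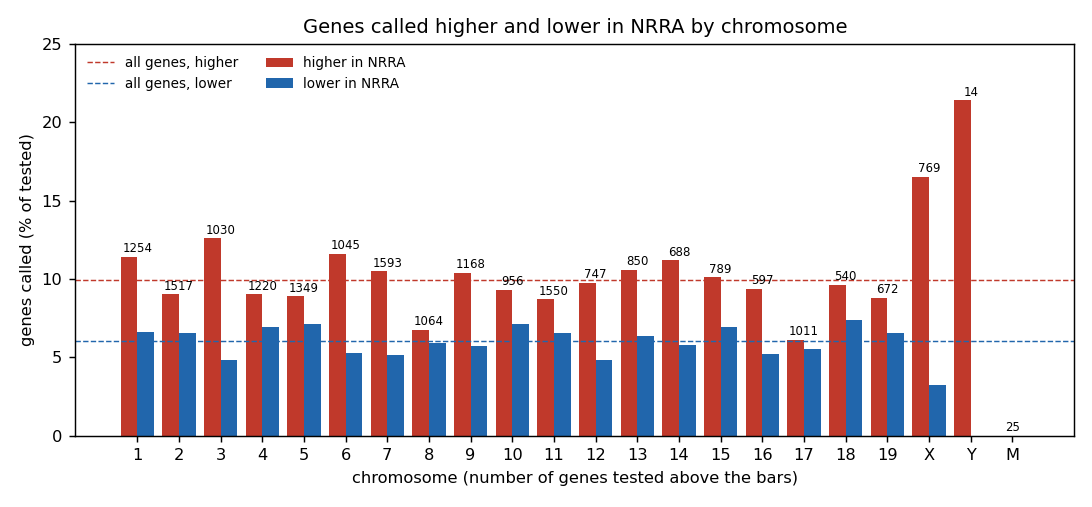
Percentage of tested genes called higher (red) and lower (blue) in NRRA on each chromosome, with the number of tested genes above the bars; dashed lines are the percentages over all genes, 9.91 and 6.02. Of the chromosomes with more than 100 tested genes, the X has the highest share of genes higher (16.5%) and the lowest share of genes lower (3.25%).

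By gene class, 9.68% of 15568 protein-coding genes rose and 6.12% fell. Long intergenic noncoding RNAs were called more often in both directions, with 15.5% of 699 higher and 10.6% lower, at a median Veh level of 0.766 CPM against 23.7 CPM for protein-coding genes. Transcripts of the annotation class TEC, which awaits experimental support, had 18.2% of 628 higher and 2.87% lower, at a median Veh level of 0.686 CPM. Of all genes with a mean under 1 CPM, 17.3% rose and 8.32% fell, as given above. Antisense genes had 9.25% of 1362 higher and 7.05% lower, but their reads cannot be told apart from those of their partners without strand. Processed pseudogenes were called least often among the classes with over 1000 genes, with 4.27% higher and 4.1% lower.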

How the data were processed

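The authors sequenced mRNA libraries, which the paper describes as stranded, and deposited a table of raw read counts per gene for all 8 libraries. The submitters' processing notes name STAR 2.6.1c, featureCounts 1.6.4 and the mm10 build. The strand setting of the counting is not given in the sources used here. Counts were tested with edgeR's quasi-likelihood test (edgeR 4.0.16, R 4.3.3) after its filter on low counts and TMM scaling, with all 8 libraries in the fit so that the 4 conditions share an estimate of the spread, and p-values were adjusted over all 20477 genes. CPM values use the scaled library sizes. A call needed an adjusted p under 0.05 and a fold of at least 2. Exon lengths and overlaps were taken from the GENCODE annotation of the reference, and promoters from RefSeq on GRCm38.p6, where 13286 of 20470 tested symbols matched. The members and gene lists (1378 of 1382 listed symbols matched) were chosen with earlier results of these data known. Named genes are the 12 largest increases and decreases with a mean of at least 50 counts, the 10 largest gains and losses per kb, up to 4 called members a direction and the most abundant member of each list, and cell type markers; members named only to complete a count, and the genes with the retinoid repeat, were chosen after their values were seen. With 2 libraries a group, p-values measure the spread between these libraries. Counting intervals are exact at 95%. The biological coefficient of variation was 3.35%. Same-numbered Veh and NRRA libraries deviated with a correlation of 0.0225. The scripts were tested on simulated data.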

Additional observations from a re-analysis of the deposited data

How the results depend on the processing

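Alternatives were another tool (DESeq2), DESeq2 size factors, library totals, no filter on low counts, a mean of at least 100 counts, only the 4 Veh and NRRA libraries, other fold thresholds, offsets for GC content and exon length, and leaving out each library. No gene called in either direction was called the other way under any of them. With a mean of at least 100 counts, where 13162 genes were tested, 873 genes were higher and 564 lower, fewer by construction; without a fold threshold the counts were 6171 and 5880, and with at least 4-fold 541 and 418. DESeq2 called 1630 higher and 1163 lower. Leaving out 1 library shifted the median of all genes by -0.005 to 0.009. Such fits assume that the lone library varies like the other groups, so their calls are not given. A fit with the replicate block called 2021 and 1232, and the numbers, shared only as labels, were not treated as pairs. Library totals gave 2458 higher and 1058 lower, raised the median of all genes by 0.11 and moved the share of calls that were higher from 62.2% to 69.9%. *Id4* had a log2 fold change of -0.13 with offsets for GC content and exon length. *Wt1*, at -0.03, was at 0.087 under library totals, 0.005 with a mean of at least 100 counts, 0.04 with the offsets and -0.164 to 0.112 with 1 library left out. *Ifitm3*, *Twist1*, *Prrx1*, *Cd68* and *Sohlh2*, all under 2-fold, crossed the threshold on the adjusted p under at least 1 alternative. The medians that changed sign under an alternative were those of the lists near 0 (fatty acid oxidation, amino acid response, FoxO and insulin, IGF binding proteins, fibroblast, Sertoli and Leydig, blood and endothelial, Notch, mitosis, D cyclins, Polycomb and histone genes) and of the neurofilament list, which was -0.30 with a mean of at least 100 counts. At 19.2 to 31.2 reads per CPM, values under 1 CPM rest on few reads.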

Other observations

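Several gene groups were small in number of calls but held single genes with large differences. Of 17 hypoxia response genes 1 rose and 1 fell, with a median of -0.20. *Adm* (adrenomedullin), a vasodilator peptide, stood at 19.6 and 19.2 CPM in Veh and 98.8 and 97.3 CPM in NRRA (log2 fold change 2.34 ± 0.07), above its means of 56.6 CPM in RA and 39.8 CPM in NR. Of 29 transporters of amino acids and glucose 1 rose and 4 fell. *Slc2a4*, the insulin-responsive glucose transporter, rose from 0.991 and 0.886 to 4.43 and 4.01 CPM, whereas *Slc38a1*, a sodium-coupled glutamine transporter, fell from 139 and 137 to 53 and 53.5 CPM. Of 15 genes of metal binding and iron 1 rose and 2 fell, the zinc-binding *Mt1* from 146 and 146 to 60.9 and 65.5 CPM and *Mt2*, which shares 73.5% of its exon bases with *Gm45774* on the opposite strand, from 169.8 and 178 to 83.1 and 82 CPM. *Cp* (ceruloplasmin), the copper-carrying ferroxidase, rose from 30.7 and 38.1 to 115 and 112 CPM, with a mean of 115 CPM in NR.

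Of 30 genes of the FoxO and insulin pathway 1 rose and 3 fell. *Cited2*, a transcriptional coregulator, fell from 96.8 and 97.8 to 29.8 and 28.9 CPM (log2 fold change -1.73 ± 0.06). Of 28 chaperones and genes of the unfolded protein response 0 were called, and 3 were higher and 18 lower by the adjusted p alone. Of 20 tested histone genes 0 were called, and 2 were higher and 7 lower by the adjusted p alone. Of 17 genes of fatty acid synthesis 1 fell, *Acacb*, a mitochondrial acetyl-CoA carboxylase, from 43.9 and 43.6 to 16.9 and 17.9 CPM. In the piRNA pathway, which silences transposons in germ cells, 2 of 26 genes rose and 2 fell. *Pld6*, a mitochondrial factor of piRNA biogenesis, rose from 5.35 and 5.52 to 14.9 and 12.6 CPM, and *Spocd1*, which directs DNA methylation to transposons, fell from 9.61 and 7.87 to 2.54 and 2.63 CPM, with 3.22 CPM in RA and 15.6 CPM in NR. Of 22 tested spermatocyte and spermatid genes 6 rose and 0 fell past 2-fold. *Ccna1* (cyclin A1), needed for the meiotic divisions of spermatocytes, was near the limit of detection in both groups, with 0.248 and 0.313 CPM in Veh and 1.29 and 1.35 CPM in NRRA.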
